A study of Homo sapiens with 8 samples.

Results

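Costimulatory ligands, adhesion molecules and markers of dendritic cell maturation were followed across 4 transfections of Reh cells, an established human leukaemia line of B-cell precursors. The set held 10 genes of 19775 measured, chosen by name: LAMP3, CD83, CD80, CD86, CD274, PDCD1LG2, ICAM1, CD58, CD44 and CD69. Every probe set that the platform annotation assigned to exactly 1 of these symbols was taken, which gave 34 of 41091 probe sets, with 13 for CD44 and 1 each for LAMP3, CD83 and CD69. The cells had received control constructs (mock), the IRF5 variant IRF5-4D, the IKKβ variant IKKβ(EE), or both variants together. The submitters call both variants constitutively active, and each of the 4 groups held 2 Affymetrix U133 Plus 2.0 arrays, numbered 1 and 3 and stated to be biological duplicates. The constructs act on top of the endogenous genes of a single cell line, and the driving promoter, the time to harvest and the share of transfected cells were not given in the sources used here. No source says that the duplicates were separate cultures, so p-values measure the spread between these arrays. In such bulk samples a change in the share of responding cells and a change in RNA per cell cannot be told apart.

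A T cell needs a costimulatory signal beside the antigen signal, and CD80 and CD86 on the antigen-presenting cell give it through CD28, while CTLA4 competes for the same ligands. CD274 (PD-L1) and PDCD1LG2 (PD-L2) belong to the same B7 family and inhibit T cells through PD-1. ICAM1 binds the integrin LFA-1, CD58 binds CD2 and CD44 binds hyaluronan, so that these molecules hold cells to each other or to matrix. LAMP3 (DC-LAMP) and CD83 mark mature dendritic cells, although activated B cells also express CD83, and CD69 is an early activation marker of lymphocytes. IKKβ releases NF-κB from its inhibitors, and IRF5, an interferon regulatory factor, acts downstream of Toll-like receptors.

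Values are log2 expression values made with RMA, and a difference of 1 is a 2-fold change. The lower quartile of an array lay at 3.86 to 3.91 and its median at 5.49 to 5.52, and levels near the quartile are not shown to lie above background. Duplicate arrays had correlations of 0.994 to 0.997 over the probe set with the highest mean of each gene. Of 3 IKBKB probe sets 1, singled out here because it responds, was 7.35 (SE 0.59) above mock with IKKβ(EE) and 5.79 (SE 0.59) above it with both constructs (limma adjusted p = 0.00129 and 0.000931). The other IKBKB probe sets read 0.14 and 0.03 above mock with IKKβ(EE) and 0.16 and 0.04 with both, and did not pass. The IRF5 probe set with the highest level was 0.20 (SE 0.13) above mock with IRF5-4D, which did not pass, and rose by 0.92 (SE 0.13) with both constructs (adjusted p = 0.00586). IRF5 probe set 205468_s_at read 5.65 and 5.66 with IRF5-4D and 5.56 and 5.60 with both, against 5.35 and 4.82 in mock cells and 5.13 and 5.04 with IKKβ(EE). The 4 arrays with IRF5-4D were thus the highest, but the difference from mock of 0.57 (SE 0.17, adjusted p = 0.701) did not pass. IRF5 probe set 239412_at read 0.05 above mock with IRF5-4D and 0.28 with both. No source used here says whether these probe sets cover the transfected sequence, and they are only a weak check of the IRF5-4D label. Of 11 B lymphocyte markers 10 lay above the array median on every array, the exception being VPREB1, a surrogate light chain gene, at 4.06 to 4.46. Of 15 dendritic and myeloid markers 1 to 4 lay above it, among them the receptor gene FLT3 at 8.82 to 9.59, while the monocyte marker CD14 read 3.78 to 4.67 and the lysozyme gene LYZ 3.32 to 3.57. Of 11 T and NK cell markers 2 to 4 did.

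Short stretches before the annotated transcription start are shown for 4 of the genes, because IKKβ and IRF5 act through the NF-κB and interferon response classes of DNA motif. They come from RefSeq on GRCh38.p14, which had windows of 250 bases before the start for 7 of the 10 genes (9 windows, since CD83 and CD86 have 2 starts each). Each line gives 30 bases, 5′ to 3′ on the strand of the gene, with the motif match in capitals. All 4 genes lie on the plus strand.
CD83: gctgcccgccGGGGAATCCCCCgggctggc
CD86: ggctccctttGGGGGTTTCCCagggcttta
ICAM1: tgctttagcttGGAAATTCCggagctgaag
CD274: ctgacatgTTTCACTTTCTGTTTCatttct
The stretches lie at chr6:14117686-14117715 for CD83, chr3:122077692-122077721 for CD86, chr19:10270923-10270952 for ICAM1 and chr9:5450326-5450355 for CD274. The CD83 and CD86 capitals, which lie from base -76 to -65 and from base -82 to -72 counted back from the start, are overlapping matches to the κB consensus, which was present on either strand in 5.21% of 35116 promoter windows. The ICAM1 capitals match a looser κB pattern, GGNNNTTCC, which overlaps the consensus and stood in 17.1% of windows. It stood in 5 of the 9 windows of these genes, in CD83, CD86, CD274, ICAM1 and CD58. The CD274 capitals are 2 overlapping matches, on the opposite strand, to the core of the interferon-stimulated response element, GAAA, NN and GAAA in a row, which stood in 3.02% of windows. The window at the other start of CD83 and of CD86, and the windows of CD80 and CD44, held no match to any of these patterns. The matches describe the letters and do not show binding.

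Genes of the set were called with IKKβ(EE) and with both constructs, and none with IRF5-4D alone. With IKKβ(EE) alone 7 of the 34 probe sets rose and 0 fell, in LAMP3, CD83, CD86, CD44, CD69 and ICAM1, against 0.37% of all probe sets that rose. With both constructs 10 of the 34 rose and 0 fell, in LAMP3, CD83, CD274, ICAM1, CD58 and CD69, against 2.04% of all probe sets that rose and 0.509% that fell. With IRF5-4D alone 0 of the 34 passed in limma, against 0.243% of all probe sets. Of the 34, 6 had an unadjusted limma p under 0.05, beside 2119 of all 41091 probe sets. The median difference of the 34 probe sets from mock was 0.07 with IRF5-4D, 0.37 with IKKβ(EE) and 0.27 with both, beside medians over all probe sets of -0.01, -0.02 and -0.03. When each gene was represented by its probe set with the highest mean, called the main probe set below, 4 of 10 genes rose with IKKβ(EE) and 6 of 10 with both constructs, against 0.47% and 2.52% of all genes. The 3 comparisons share the 2 mock arrays. The genes, and the lists used further on, were chosen with earlier results of these data known. Their shares beside those of all probe sets or genes are therefore a description only. The count of 7 with IKKβ(EE) was 2 without IKKβ(EE) replicate 1 and 4 without mock replicate 3, and the count of 10 with both constructs was 6 without combination replicate 1.

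**Figure D1:**
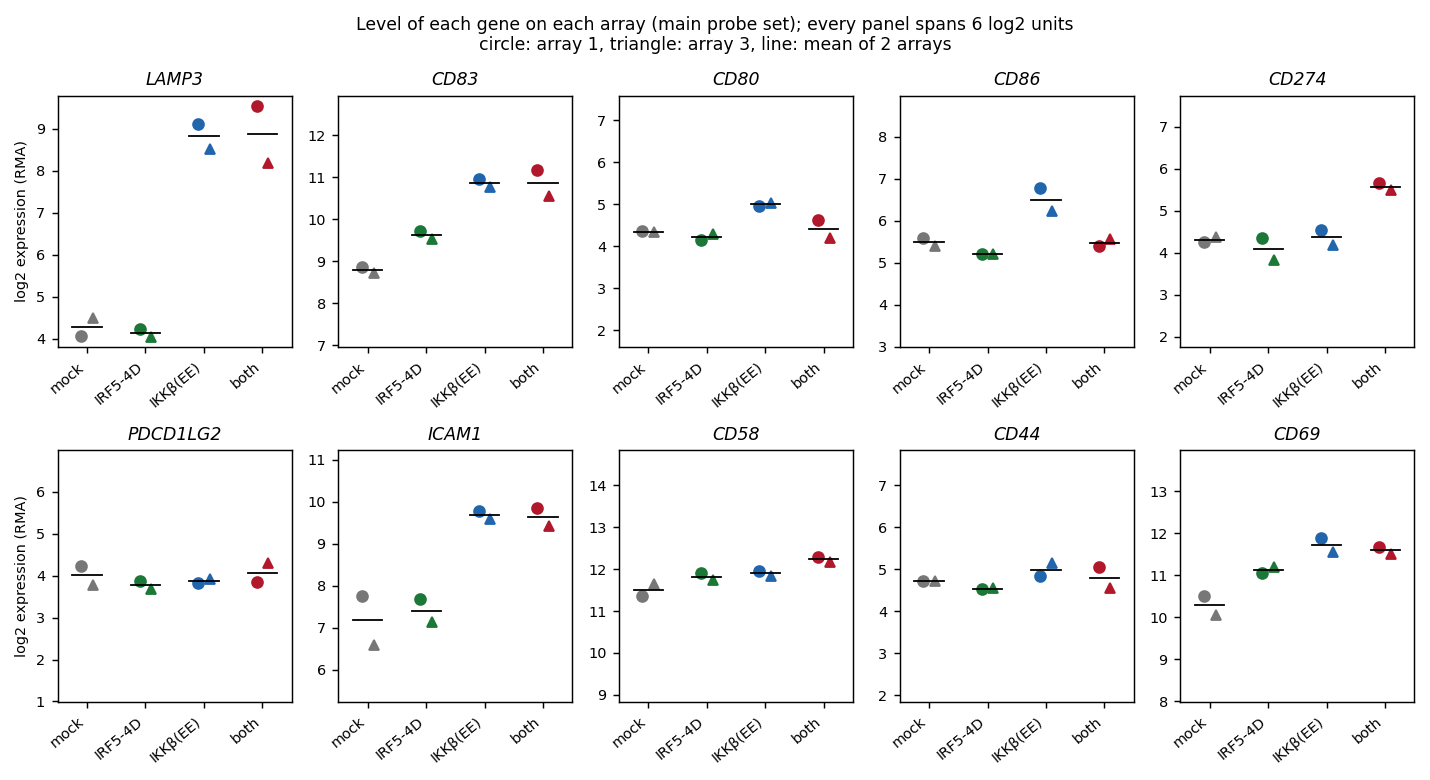
Log2 expression of the main probe set of each of the 10 genes (vertical axis, RMA) on each array of the 4 groups (horizontal axis); circles are arrays numbered 1, triangles arrays numbered 3, lines the mean of 2 arrays, and every panel spans the same number of log2 units. LAMP3, CD83, ICAM1 and CD69 are high in both groups with IKKβ(EE), CD86 is high with IKKβ(EE) alone and CD274 is high with both constructs.

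LAMP3 and CD83, the markers of dendritic cell maturation, rose with IKKβ(EE) and with both constructs. LAMP3, a glycoprotein of the lysosomal membrane, read 4.07 and 4.50 on the mock arrays, 4.23 and 4.05 with IRF5-4D, 9.12 and 8.52 with IKKβ(EE), and 9.54 and 8.20 with both constructs. Mock and IRF5-4D arrays overlapped near the lower quartile, and all 4 arrays with IKKβ(EE) lay far above them. LAMP3 rose by 4.54 (SE 0.37, n = 2 arrays a group, limma adjusted p = 0.00131) with IKKβ(EE), and by 4.59 (SE 0.37, adjusted p = 0.000256) with both. No fold is given, because the mock level is not shown to lie above background. Both constructs differed from IKKβ(EE) alone by 0.05, with a 95% interval from -0.80 to 0.89. CD83, a surface glycoprotein of the immunoglobulin superfamily, read 8.86 and 8.73 in mock cells, 9.72 and 9.52 with IRF5-4D, 10.96 and 10.78 with IKKβ(EE), and 11.17 and 10.56 with both. It formed 3 separate levels, with mock lowest, IRF5-4D between, and the groups with IKKβ(EE) highest and overlapping each other. CD83 rose by 2.08 (SE 0.19, adjusted p = 0.00224) with IKKβ(EE) and by 2.07 (SE 0.19, adjusted p = 0.000484) with both, and read 0.83 (SE 0.19, adjusted p = 0.33) above mock with IRF5-4D. Both constructs differed from IKKβ(EE) alone by -0.00 with an interval from -0.43 to 0.43. CD83 was higher with both constructs than with IRF5-4D by 1.24 (SE 0.19, adjusted p = 0.0179), a call lost when IRF5-4D replicate 1 (1.34) or 3 (1.14) or combination replicate 1 (0.94) was left out. Whichever of the 8 arrays was left out, the rises of both genes over mock were called.

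ICAM1, the ligand of LFA-1 that NF-κB is known to induce, rose with IKKβ(EE) on 2 of its 3 probe sets. The main probe set read 7.76 and 6.59 in mock cells, 7.69 and 7.13 with IRF5-4D, 9.78 and 9.58 with IKKβ(EE), and 9.86 and 9.43 with both constructs. The arrays with IKKβ(EE) did not overlap the others, and the mock arrays were the pair that lay farthest apart. ICAM1 rose by 2.51 (SE 0.34, adjusted p = 0.018) or 5.69-fold with IKKβ(EE), and by 2.47 (SE 0.34, adjusted p = 0.00509) with both, while IRF5-4D alone read 0.23 (SE 0.34, 95% interval -0.53 to 0.99). Both constructs differed from IKKβ(EE) alone by -0.03, with an interval from -0.79 to 0.73. Probe set 215485_s_at rose by 1.45 with IKKβ(EE) and by 1.16 with both (adjusted p = 0.00659 and 0.00588). Probe set 202638_s_at read 7.27 and 5.55 in mock cells and 2.34 (SE 0.49) above them with IKKβ(EE), which did not pass (adjusted p = 0.134). It passed without mock replicate 1, at 3.20 with IKKβ(EE) and 2.78 with both. On the main probe set the call with IKKβ(EE) was lost without IKKβ(EE) replicate 1 (2.41) or replicate 3 (2.61), and on 215485_s_at without IKKβ(EE) replicate 1 (1.30), whereas the call with both constructs held on these 2 probe sets in all 8 fits without 1 array.

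CD58, the ligand of CD2, changed by less but on most of its probe sets. The main probe set read 11.37 and 11.64 in mock cells, 11.90 and 11.74 with IRF5-4D, 11.96 and 11.83 with IKKβ(EE), and 12.29 and 12.18 with both constructs. The mock arrays were the lowest and the combination arrays the highest, with the single constructs overlapping each other between them. Of 5 probe sets 4 rose with both constructs, by 0.73 to 0.89, and 0 passed with either single construct, where the 5 read 0.32 to 0.67 above mock with IRF5-4D and 0.33 to 0.64 with IKKβ(EE). Probe set 222061_at came nearest with the single constructs (adjusted p = 0.0651 with IRF5-4D and 0.0572 with IKKβ(EE)), and with both it rose by 0.80 (SE 0.11, adjusted p = 0.00526). The fifth, 216322_at, read 0.55 (SE 0.21, adjusted p = 0.252) above mock with both. The sum of the single differences was 0.71 against 0.73 with both on the main probe set, and 1.30 against 0.80 on 222061_at (interaction -0.50, SE 0.16, adjusted p = 0.549). The main probe set ends in _x_at, a class that may bind several transcripts. Without mock replicate 1 or combination replicate 1 its call was lost (0.60 and 0.67), as it was without combination replicate 3 (0.79). The calls of 211744_s_at (0.78 and 0.75) and 216942_s_at (0.72 and 0.75) were also lost without mock replicate 1 or combination replicate 1, and 222061_at kept its call in all 8 fits.

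CD44, the hyaluronan receptor, lay low on all 13 probe sets, with means over all arrays from 2.96 to 4.76. Of these 12 passed in no comparison. The main probe set read 4.72 and 4.73 in mock cells and 5.06 and 4.54 with both constructs, a difference of 0.07 with a 95% interval from -0.32 to 0.47. The exception was 212063_at, which read 2.84 and 2.99 in mock cells, 2.97 and 2.88 with IRF5-4D, 3.97 and 3.90 with IKKβ(EE), and 3.42 and 3.01 with both. It rose by 1.02 (SE 0.15, adjusted p = 0.0287) with IKKβ(EE), and both constructs read -0.72 (SE 0.15, adjusted p = 0.0603) against IKKβ(EE) alone. The rise was called in 2 of the 8 fits without 1 array, those without a combination array. It was lost without mock replicate 1 (0.94) or 3 (1.09), without IKKβ(EE) replicate 1 (0.98) or 3 (1.05), and without either IRF5-4D array (1.02), and the levels lie near the lower quartile.

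CD86 rose with IKKβ(EE) alone and was lower, near its mock values, when IRF5-4D was added. Probe set 210895_s_at, which spanned the widest range of the 3, read 4.49 and 4.00 in mock cells, 3.91 and 3.56 with IRF5-4D, 7.50 and 6.47 with IKKβ(EE), and 4.54 and 3.95 with both constructs. Only the 2 arrays with IKKβ(EE) alone lay apart, and the other groups stayed between 3.56 and 4.54. It rose by 2.74 (SE 0.33, limma adjusted p = 0.00989) over mock with IKKβ(EE), and with both constructs it was lower than with IKKβ(EE) alone by 2.74 on the log2 scale (SE 0.33, adjusted p = 0.0039). With both constructs it differed from mock by 0.00, with a 95% interval from -0.74 to 0.74. The main probe set 205685_at followed the same order at a smaller size, with 5.59 and 5.40 in mock cells, 5.20 and 5.21 with IRF5-4D, 6.77 and 6.23 with IKKβ(EE), and 5.40 and 5.56 with both. It read 1.01 (SE 0.18, adjusted p = 0.06) above mock with IKKβ(EE), which did not pass, and fell by 1.02 (SE 0.18, adjusted p = 0.0252) from IKKβ(EE) alone to both constructs. The third probe set, 205686_s_at, read 0.82 (SE 0.23, adjusted p = 0.363) above mock with IKKβ(EE) and did not pass in any comparison.

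The fall of 210895_s_at between IKKβ(EE) alone and both constructs was called in all 8 fits without 1 array, while its rise over mock was lost without IKKβ(EE) replicate 1 (2.23) or mock replicate 3 (2.50). The fall of 205685_at was lost in 5 of those fits: without IKKβ(EE) replicate 1 (-0.75), without combination replicate 1 (-0.94) or 3 (-1.10), and without either IRF5-4D array (-1.02). Its rise passed without IKKβ(EE) replicate 3 (1.28). The IKBKB probe set that responded to IKKβ(EE) moved the same way between these groups, by -1.56 (SE 0.59, adjusted p = 0.354). Its part in the CD86 result was not tested. LAMP3, CD83, ICAM1 and CD69 differed between the same groups by -0.13 to 0.05 on their main probe sets.

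CD80, the other ligand of CD28, had 3 probe sets and 0 passed in limma in any comparison. Its main probe set read 4.36 and 4.33 in mock cells, 4.14 and 4.29 with IRF5-4D, 4.96 and 5.04 with IKKβ(EE), and 4.62 and 4.19 with both constructs. The arrays with IKKβ(EE) alone were the highest and overlapped no other group. The difference from mock was 0.65 (SE 0.15, adjusted p = 0.213, 95% interval 0.308 to 0.998) with IKKβ(EE) and 0.06 (interval -0.29 to 0.40) with both. Probe set 1554519_at read 3.74 and 3.96 in mock cells and 5.15 and 4.64 with IKKβ(EE). Its difference of 1.05 (SE 0.18, adjusted p = 0.0572) passed without IKKβ(EE) replicate 3 (1.30). With both constructs it read 4.33 and 4.06. The third probe set, 1555689_at, read 0.24 above mock with IKKβ(EE) and 0.10 with both. All 3 CD80 probe sets and all 3 CD86 probe sets had their highest group mean with IKKβ(EE) alone. For CD80 1555689_at this mean was 3.06, beside 3.02 with IRF5-4D. Its arrays read 2.77 to 3.19, all below the lower quartile, so its order of groups carries little weight.

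**Figure D2:**
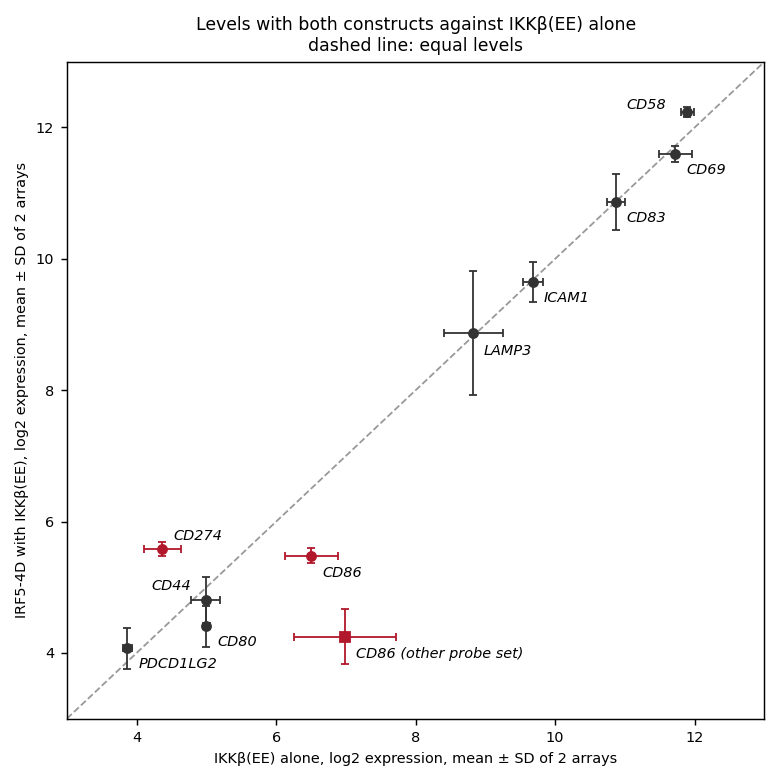
Mean log2 expression with both constructs (vertical axis) against IKKβ(EE) alone (horizontal axis), each with the SD of 2 arrays, for the main probe set of each gene (circles) and for CD86 probe set 210895_s_at (square); the dashed line marks equal levels and CD86 and CD274 are in red. CD86 lies below the line, CD274 above it, and LAMP3, CD83, ICAM1 and CD69 lie within 0.13 of it; distances from the line can be read, whereas levels of different genes are not comparable.

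CD274, the ligand of PD-1, rose when the constructs were combined and with neither alone. Its main probe set read 4.25 and 4.37 in mock cells, 4.34 and 3.84 with IRF5-4D, 4.55 and 4.18 with IKKβ(EE), and 5.66 and 5.50 with both constructs. The 6 other arrays overlapped between 3.84 and 4.55, and both combination arrays lay above them. CD274 rose by 1.27 (SE 0.19, adjusted p = 0.00762) over mock with both constructs. It was also higher with both than with IRF5-4D by 1.49 (SE 0.19, adjusted p = 0.00737) and than with IKKβ(EE) by 1.21 (SE 0.19, adjusted p = 0.0157). The single constructs differed from mock by -0.22 (95% interval -0.64 to 0.21) and 0.06 (interval -0.36 to 0.48). The other probe set, 223834_at, read 4.07 and 4.13 in mock cells and 4.62 and 4.54 with both, a difference of 0.48 (SE 0.15, adjusted p = 0.151). The rise over mock was lost without combination replicate 1 (1.19) or mock replicate 1 (1.21), that over IRF5-4D without IRF5-4D replicate 3 (1.24), and that over IKKβ(EE) without IKKβ(EE) replicate 3 (1.02) or combination replicate 1 (1.13). The main IRF5 probe set was also higher with both constructs than with IRF5-4D, by 0.71 (SE 0.13, adjusted p = 0.0379), while IRF5 probe sets 205468_s_at and 239412_at read -0.07 and 0.23 and did not pass. Their part in the CD274 result was not tested. The window before the CD274 start, chr9:5450292-5450541 on the plus strand, holds the response element matches from base -208 to base -193, in capitals. It also holds, in lower case and on the opposite strand, a match to the looser κB pattern from base -111 to base -103:
CD274: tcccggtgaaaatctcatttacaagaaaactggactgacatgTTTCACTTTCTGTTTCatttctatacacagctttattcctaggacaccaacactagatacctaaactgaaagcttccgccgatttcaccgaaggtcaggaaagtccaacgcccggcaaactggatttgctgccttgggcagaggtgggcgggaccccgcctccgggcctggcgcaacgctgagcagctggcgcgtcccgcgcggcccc

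PDCD1LG2, the second ligand of PD-1, is the next protein-coding gene to CD274 on chromosome 9, with 0 others between them in the RefSeq table. Its main probe set read 4.24 and 3.78 in mock cells, 3.87 and 3.68 with IRF5-4D, 3.82 and 3.92 with IKKβ(EE), and 3.85 and 4.29 with both constructs. All 4 groups overlapped near the lower quartile. Neither of its 2 probe sets passed in any comparison, and the difference between both constructs and mock was 0.06 with a 95% interval from -0.37 to 0.49. On 224399_at it was 0.22 (SE 0.15, adjusted p = 0.553).

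CD69, a C-type lectin that holds lymphocytes in tissue after activation, rose with IKKβ(EE) and with both constructs. It read 10.51 and 10.06 in mock cells, 11.05 and 11.20 with IRF5-4D, 11.89 and 11.55 with IKKβ(EE), and 11.68 and 11.50 with both. The mock arrays were the lowest, IRF5-4D lay between, and the groups with IKKβ(EE) overlapped each other at the top. CD69 rose by 1.44 (SE 0.18, adjusted p = 0.0119) with IKKβ(EE) and by 1.31 (SE 0.18, adjusted p = 0.00493) with both, and read 0.84 (SE 0.18, adjusted p = 0.228) above mock with IRF5-4D. The call with IKKβ(EE) was lost without mock replicate 3 (1.21) or IKKβ(EE) replicate 1 (1.27), and that with both constructs held in all 8 fits.

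**Figure D3:**
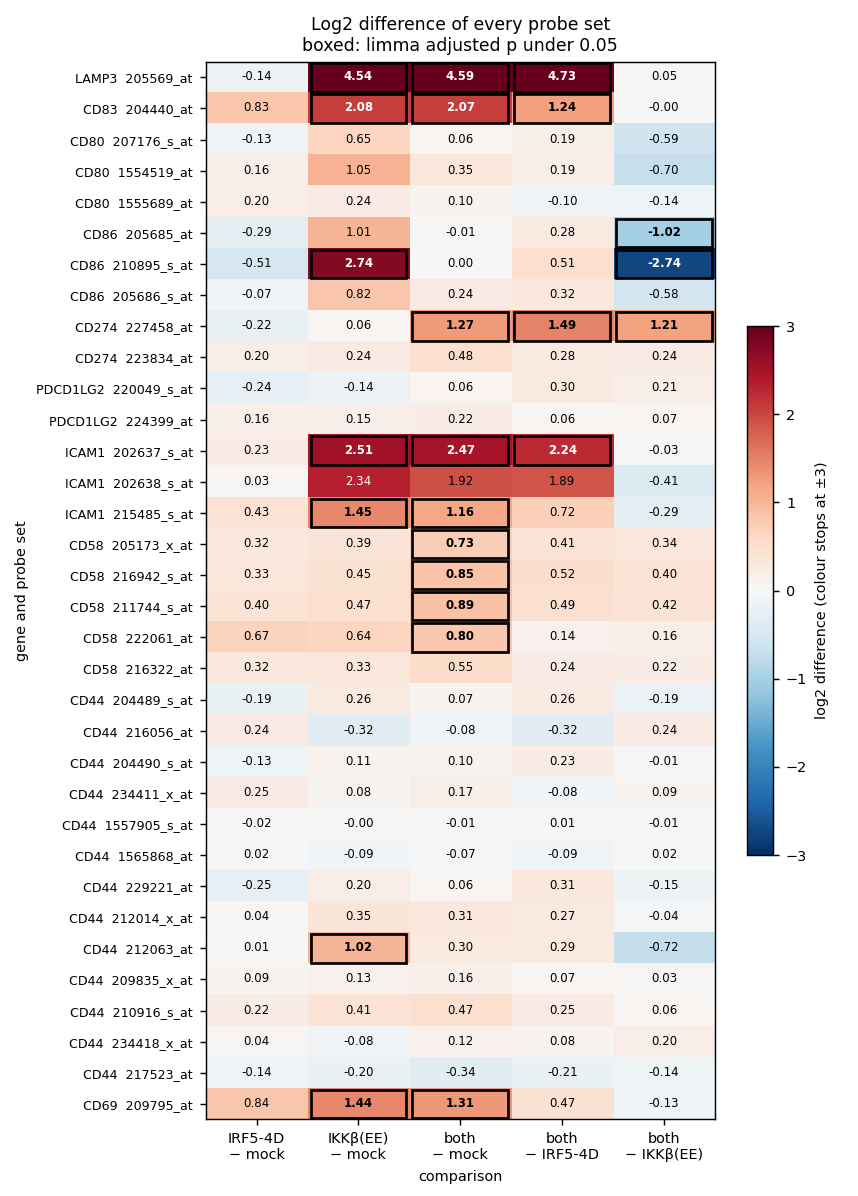
Log2 difference of each of the 34 probe sets (rows, grouped by gene) in 5 comparisons (columns); red is higher and blue lower in the group named first, and boxes mark a limma adjusted p under 0.05. With IKKβ(EE) alone 7 probe sets are boxed and with both constructs 10, and the boxes of CD274 and CD58 appear only in comparisons of the combination.

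The constructs were then set against each other. IKKβ(EE) was higher than IRF5-4D on 7 of the 34 probe sets and lower on 0, against 0.336% of all probe sets that were higher and 0.258% that were lower, and the genes were LAMP3 by 4.68 (SE 0.37, adjusted p = 0.000878), CD86, ICAM1, CD83 and CD44. This count was 2 when IRF5-4D replicate 1 was left out and 1 when replicate 3 was, and 2 without IKKβ(EE) replicate 1 and 4 without replicate 3, and LAMP3 kept its call throughout. Adding IKKβ(EE) to IRF5-4D raised 4 probe sets, those of LAMP3 by 4.73, ICAM1 by 2.24 (main probe set), CD274 and CD83, against 0.84% of all. The ICAM1 call was lost when IRF5-4D replicate 1 (2.52) or 3 (1.96) or combination replicate 1 (2.03) was left out, and the count of 4 was 2, 1 and 2 in these fits. Adding IRF5-4D to IKKβ(EE) raised 1 probe set, of CD274, and lowered 2, both of CD86, against 1.06% and 0.324% of all. The interaction compares the rise with both constructs over mock with the sum of the rises with each alone. It had 0 of 34 probe sets past the test in limma, against 0.0803% of all. The interaction also had 9 of 34 at an unadjusted p under 0.05, beside 2612 of all 41091 probe sets. The CD274 main probe set read 1.43 (SE 0.27, adjusted p = 0.156) in it, CD86 probe set 210895_s_at -2.24 (SE 0.47, adjusted p = 0.225), CD69 -0.97 (SE 0.25, adjusted p = 0.395) and CD83 -0.83 (SE 0.27, adjusted p = 0.577).

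The other genes of these pathways were taken from 9 lists with 113 measured genes. Of these 4 rose with IRF5-4D, 8 with IKKβ(EE) and 23 with both constructs (1 fell with both). Of all genes 0.293%, 0.47% and 2.52% rose, and 0.399% fell with both. The lists overlap, so their separate counts do not add up to these. Fewer genes were called with both constructs in every fit without 1 array. The count with IKKβ(EE) was 2 without IKKβ(EE) replicate 1, 4 without mock replicate 3 and 5 without either IRF5-4D array. That with IRF5-4D was 0 without either IRF5-4D array or without mock replicate 1, and 1 without mock replicate 3. Of 13 costimulatory ligands and receptors of the TNF families 6 rose with both constructs and 3 with IKKβ(EE), the latter 1 without a mock array, an IRF5-4D array or IKKβ(EE) replicate 1. CD40, which receives T cell help, rose by 3.04 (SE 0.23), the 4-1BB ligand TNFSF9 by 3.66 (SE 0.40), the OX40 ligand TNFSF4 by 2.89 (SE 0.24) and TNFRSF9 (4-1BB) by 2.71 (SE 0.29) with both. Of 11 genes of the SLAM and CD2 family 3 rose with both: SLAMF1 by 4.92 (SE 0.51), CD48 by 2.34 (SE 0.20) and SLAMF7 by 0.94 (SE 0.14). CD48, a relative of CD58, also rose with IRF5-4D by 1.32 (SE 0.20) and read -0.52 (SE 0.20, adjusted p = 0.67) against mock with IKKβ(EE). Its call with IRF5-4D was lost without mock replicate 1 (1.26) or 3 (1.38), IRF5-4D replicate 1 (1.29) or 3 (1.35), or either IKKβ(EE) array (1.32).

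**Figure D4:**
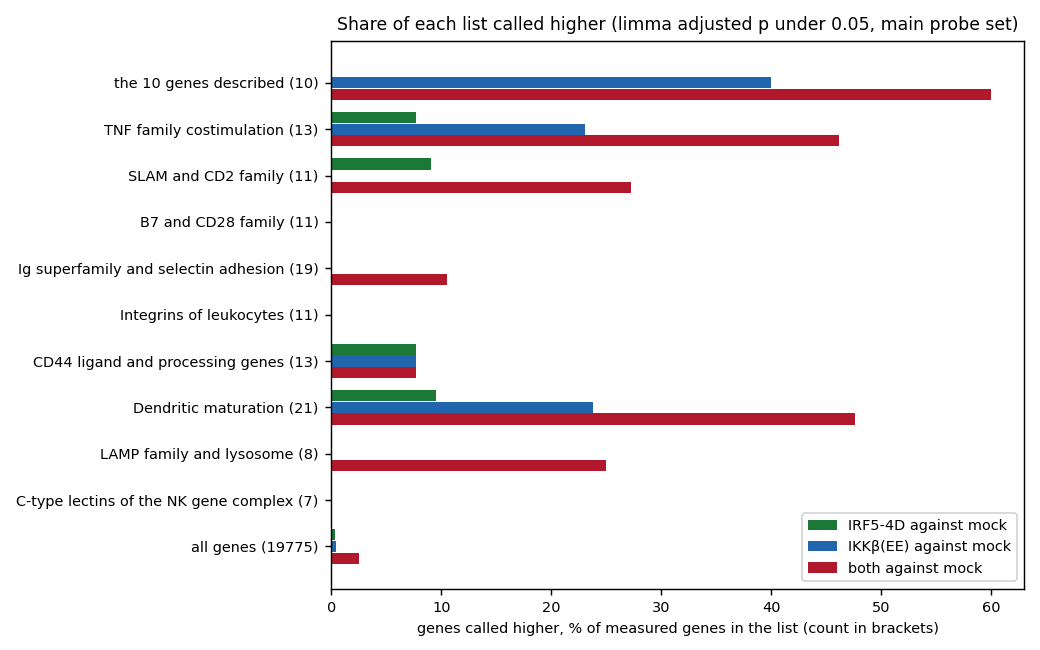
Percent of the measured genes of each list (rows, count in brackets) called higher than mock with IRF5-4D (green), IKKβ(EE) (blue) and both constructs (red), each gene by its main probe set. The 10 genes described stand at 4 and 6 of 10 with IKKβ(EE) and both constructs, and the bottom row gives the share over all genes.

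Of the 11 other members of the B7 and CD28 families 0 passed in limma with both constructs, and the checkpoint gene VSIR read 0.38 (SE 0.16). In this comparison 1 of the 11 had an unadjusted limma p under 0.05, beside 6213 of all 41091 probe sets. Of 11 leukocyte integrins 0 passed, with 3 at an unadjusted p under 0.05, and ITGB1 read 0.44 (SE 0.14). Of 19 adhesion genes of the immunoglobulin superfamily and selectins 2 rose with both constructs, ALCAM, the ligand of CD6, by 1.68 (SE 0.20) and ICAM3, another LFA-1 ligand, by 1.03 (SE 0.20). The call of ICAM3 was lost without mock replicate 1 (0.97) or 3 (1.08), combination replicate 3 (0.74) or either IRF5-4D array (1.03). Of 13 genes for ligands and partners of CD44, SRGN, the proteoglycan serglycin, rose by 6.98 (SE 0.30) with both, by 2.44 (SE 0.30) with IKKβ(EE) and by 2.15 (SE 0.30) with IRF5-4D. SPP1 (osteopontin) fell by 0.83 (SE 0.14) with both constructs. Without combination replicate 1 or mock replicate 1 SPP1 read -0.74 and -0.67 and lost its call. The SRGN call with IKKβ(EE) was lost without IKKβ(EE) replicate 1 (2.20), and that with IRF5-4D without IRF5-4D replicate 1 (1.98), IRF5-4D replicate 3 (2.32) or mock replicate 1 (1.66).

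Of 21 other dendritic maturation genes 10 rose with both constructs, 5 with IKKβ(EE) and 2 with IRF5-4D. The count with both constructs was lower without mock replicate 3, either IRF5-4D array or combination replicate 1. The chemokine receptor CCR7, which guides mature dendritic cells to lymph nodes, rose by 5.52 (SE 0.37), the cytokine subunit EBI3 by 6.22 (SE 0.34) and the adaptor TRAF1 by 3.74 (SE 0.30) with both. With IRF5-4D alone CCR7 rose by 2.87 (SE 0.37) while EBI3 read 0.15 (SE 0.34), and LAMP3 read -0.14 (SE 0.37). The count of 5 was 1 without IKKβ(EE) replicate 1, and that of 2 was 0 without any 1 of the mock or IRF5-4D arrays, where CCR7 read 2.52 to 3.22 and lost its call. Of 8 lysosomal genes including the other LAMP family members, the tetraspanin CD63 rose by 0.88 (SE 0.16) and the protease gene CTSS by 0.88 (SE 0.13) with both constructs. Without mock replicate 1 or combination replicate 1 CD63 read 0.76 and 0.74 and lost its call. Of 7 C-type lectin genes of the NK gene complex, where CD69 lies, 0 passed in limma with both constructs. At an unadjusted limma p under 0.05 there was 1 of the 7, beside 6213 of all 41091 probe sets. CLEC2D read 0.91 (SE 0.20, adjusted p = 0.0502), or 1.22 without combination replicate 3. Among the markers of dendritic and myeloid cells CD1A rose by 0.75 (SE 0.13) and CD1C by 0.65 (SE 0.11) with both constructs and MRC1 fell by 1.17 (SE 0.23). All 3 calls were lost without combination replicate 1 (0.77, 0.68 and -0.98) or 3 (0.73, 0.62 and -1.36). CD1A was also lost without mock replicate 3 (0.64), CD1C without mock replicate 1 (0.70) or 3 (0.60), and MRC1 without mock replicate 1 (-0.80) or any array of the single constructs (-1.17). The summed log2 level of the 15 markers was 70.8 to 73.2 in mock cells, 70.7 to 71.6 with IRF5-4D, 68.6 to 69.8 with IKKβ(EE) and 70.0 to 72.1 with both. Of the 11 T and NK cell markers 1 rose with both constructs, the natural killer cell marker NKG7, by 1.34 (SE 0.19). Only 3 of the 11 lay above mock with both, and the median difference of the 11 was -0.12. The part of other cell types in the results was not tested.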

How the data were processed

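The deposited table holds 1 log2 expression value per probe set and array, made with RMA per the submitters' processing notes. RMA corrects background, quantile-normalizes between arrays and summarises probes. The RMA software was not given in the sources used here, nor was the chip definition. Of 54675 probe sets, 62 controls and 13522 without exactly 1 symbol were left out.

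The means of the 4 groups were estimated from all 8 arrays for 41091 probe sets in limma 3.58.1 (R 4.3.3, lmFit and eBayes, 4 residual and 5.24 prior degrees of freedom). P values were Benjamini-Hochberg adjusted over all probe sets, with calls at an adjusted p under 0.05. SE is limma's moderated standard error, and intervals are 95% intervals from it, not adjusted. With 2 arrays a group, the number of arrays limits the precision. A gene's main probe set is the one with the highest mean. Gene symbols came from the platform annotation. The rule for named genes took all probe sets of the 10 genes (12 of CD44 are given by their range) and, of each other list, up to 4 called genes with the largest change with both constructs (otherwise 2). The genes and lists were chosen with earlier results of these data known. Alternatives covered normalization, filters, variance settings, the replicate block and leaving out each array. The procedure was tested on simulated data.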

Additional observations from a re-analysis of the deposited data

How the results depend on the processing

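Of 31 calls of member probe sets over the 7 comparisons, 24 held in every alternative that kept all arrays and the probe set, 11 held without each array in turn, and 11 held in both, with 0 changes of direction among calls. The number of called member probe sets was 4 with IKKβ(EE) against mock, 6 with both constructs against mock and 4 for IKKβ(EE) against IRF5-4D when only main probe sets were fitted, which leaves 10 probe sets in place of 34. With only probe sets above the median level it was 1 for both constructs against IKKβ(EE). Without 1 array it ranged from 2 to 8 with IKKβ(EE), 6 to 11 with both, 1 to 5 for both against IRF5-4D, 2 to 3 for both against IKKβ(EE), 1 to 8 for IKKβ(EE) against IRF5-4D, and 0 to 0 for IRF5-4D against mock and for the interaction. What the replicate numbers stand for is not stated. Deviations of same-numbered arrays correlated at -0.07 to 0.34 between groups, above 0.1 in 5 of 6 pairs of groups, so a pairing is possible but not established. With the replicate block the count was 11 with IKKβ(EE) and 2 for the interaction (CD274 main probe set, 1.43, adjusted p = 0.0483, and CD86 210895_s_at, -2.24, adjusted p = 0.00689), and the other counts stayed within 1.5 times. Over all probe sets the counts of 100, 152 and 1049 calls against mock (IRF5-4D, IKKβ(EE), both) ranged over the alternatives from 27 to 157, 31 to 293 and 484 to 1639. Those of 422, 569 and 244 between constructs ranged from 60 to 802, 191 to 894 and 52 to 376, and the interaction's 33 from 0 to 123. Averaging the probe sets of each gene, CD86 fell by 1.45 from IKKβ(EE) to both and kept that call, while the rise of CD86 with IKKβ(EE) (1.53, adjusted p = 0.0528), that of CD44 (0.14) and the ICAM1 difference between both and IRF5-4D (1.62, adjusted p = 0.0542) did not pass. Fitting only the groups compared ended 7 calls: ICAM1 (main probe set) and CD69 with IKKβ(EE), 3 CD58 probe sets with both, CD86 205685_at between IKKβ(EE) and both, and CD83 between IRF5-4D and both. Array weights, trend, robust variance, median centring, quantile normalization, the full table and the fit of only the groups compared moved no member count by over 1.5 times. Where a count moved for another reason than fewer probe sets or arrays, the cause was not tested. The alternatives for the other lists were chosen after seeing the data.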

Other observations

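For the 6 genes whose main probe set spanned over 1 log2 unit between group means, the most alike other genes were sought. The 557 other genes searched were those whose main probe set also spanned over 1 log2 unit, a choice that favours high correlations. Likeness was the Pearson correlation over the 8 arrays, given here as a description, since all arrays share the 4 groups. CD86 was most like NR4A3, an orphan nuclear receptor gene (r = 0.973, n = 8), the syndecan gene SDC2 (0.972) and TRIM32 (0.972), all with their highest group mean with IKKβ(EE) alone. NR4A3 read 5.72 in mock cells, 5.37 with IRF5-4D, 7.40 with IKKβ(EE) and 5.89 with both constructs. CD274 was most like SERPINE2, a secreted protease inhibitor (0.972), the interleukin-10 receptor gene IL10RA (0.969) and SLC51A (0.968). IL10RA read 4.12, 3.84, 4.14 and 6.68 in the same order of groups. CD83 was most like the MHC class II gene HLA-DQA1 (0.994), the CD27 ligand gene CD70 (0.992) and HLA-DQB1 (0.989), and CD69 like HLA-DPB1 (0.956). LAMP3 was most like LINC00158 (0.992) and the class II pseudogene HLA-DPB2 (0.979), and also like IL15 (0.979), a cytokine of T and NK cells. ICAM1 was most like DHRS3 (0.974), IRAK2 (0.974) and TANK (0.973). Probe sets of the HLA family may bind several of its transcripts.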
